A study of Homo sapiens with 6 samples.

Results

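The mRNAs of the mTOR pathway were followed in HEK293T cells, which derive from human embryonic kidney and carry the SV40 large T antigen. The members were 38 genes chosen by name: subunits of the mTOR complexes, the regulators that act on them and direct substrates of mTORC1. In the mRNA-seq table these genes had 81 transcripts of the 38438 listed. Growing cells, with no inhibitor, were compared with mTOR-inactive cells, which had been treated with 2.5 µM PP242, an inhibitor that competes with ATP at the mTOR kinase. The sources used here do not give the duration of PP242 treatment for these samples. mRNA levels were measured in 2 libraries of growing and 2 libraries of mTOR-inactive cells, as RPKM (reads scaled by transcript length and library size). Binding of endogenous LARP1 was mapped by PAR-CLIP in 1 library per condition, from cells labeled with 100 µM 4-thiouridine for 14 h and crosslinked with 150 mJ/cm2 of ultraviolet light. All samples come from 1 cell line, and the labels do not say whether the 2 mRNA-seq libraries of a condition came from separate cultures, so the p-values measure the spread between these libraries only.

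mTOR is a kinase that acts in a pair of complexes. mTORC1, defined by Raptor, is recruited to the lysosome by the Rag GTPases and Ragulator when amino acids are plentiful and is switched on there by RHEB. The TSC complex keeps RHEB off, and growth factors working through PI3K, PDK1 and AKT relieve this brake, whereas AMPK strengthens it when energy is low. mTORC1 phosphorylates the S6 kinases and the 4E-BPs and thereby promotes translation, above all of mRNAs that begin with a 5’ terminal oligopyrimidine (TOP) sequence. LARP1 is an RNA-binding protein that binds TOP mRNAs and is itself a substrate of mTORC1. mTORC2, defined by Rictor, phosphorylates AKT.

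Most of the chosen markers of the line were found. Of 8 genes typical of HEK293T cells, 7 were in the table and 5 of them had a mean of at least 1 RPKM, led by VIM at 225 RPKM. LHX1 and PAX2 were below this minimum, at 0.808 and 0.123 RPKM. Of 9 markers of blood, liver and fibroblasts, 6 were in the table and only COL1A1 exceeded 1 RPKM, at 1.80 RPKM. Judged from the steps between low RPKM values, the 4 libraries were sequenced to nearly equal depth, within 1.06 times of each other. RPKM does not give the number of reads. For 1 transcript measured in 2 libraries against 2, the smallest two-sided p that an exact permutation test allows is 0.333. Differences were therefore tested with limma over all 21014 transcripts whose mean reached 1 RPKM, as differences in log2(RPKM + 1), with Benjamini-Hochberg adjusted p-values and a threshold of 0.05. On this scale the change of transcripts with low RPKM is understated. RPKM is relative to all mapped reads of a library, and in these bulk samples a lower level in every cell cannot be told apart from fewer cells with the mRNA.

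mRNAs of the pathway spanned about 2 orders of magnitude. For each gene, the transcript with the highest mean RPKM is described first. In total, 14 genes had a mean above 10 RPKM and 23 genes lay between 1 and 10 RPKM. The median of the 38 genes was 6.20 RPKM in growing and 6.35 RPKM in mTOR-inactive cells. In growing cells the median was 7.84 RPKM over the 10632 genes with an mRNA of a mean of at least 1 RPKM. The members include DEPTOR, which is under this minimum, so the sets were not filtered alike. The most abundant member was EIF4EBP1, followed by RHEB, LAMTOR1, RRAGA and LAMTOR2. The least abundant were DEPDC5 and DEPTOR, the latter encoding the inhibitory subunit of both complexes, whose libraries overlapped. Between neighbours in the order of levels, the 4 libraries of one gene overlapped those of the next in 21 of 37 pairs. RHEB and LAMTOR1, for example, could not be ordered, and neither could RPS6KB2, MTOR and EIF4EBP2.

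**Figure D1:**
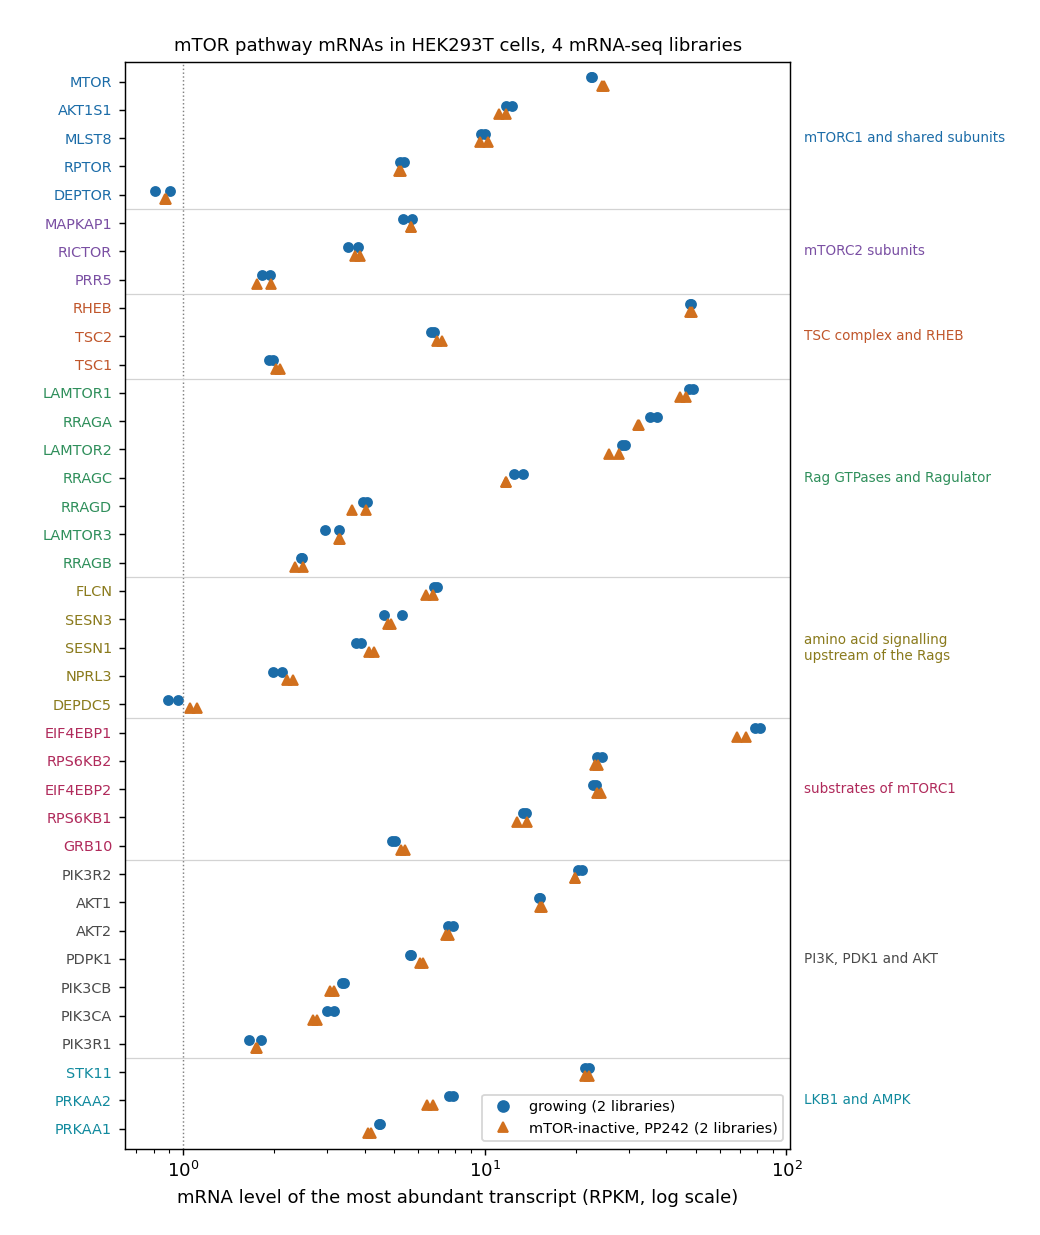
mRNA levels (RPKM, log axis) of the most abundant transcript of each of the 38 members, grouped by role. Circles are the 2 growing and triangles the 2 mTOR-inactive libraries, and the dotted line marks 1 RPKM. EIF4EBP1 lies at the upper end between 68.3 and 81.8 RPKM, and DEPTOR at the lower end between 0.808 and 0.904 RPKM.

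PP242 was accompanied by small differences in these mRNAs. Of the 74 member transcripts tested, which belong to 37 genes, MTOR was higher in mTOR-inactive cells, and PRKAA2, RRAGA and EIF4EBP1 were lower. Thus 1 member transcript rose and 3 fell, together 5.41% of those tested. Over all transcripts 3.48% rose and 6.45% fell (731 and 1356 of 21014), together 9.93%, so the members did not pass the test more often than other transcripts. At an unadjusted p under 0.05, 13 of the 74 member transcripts were higher and 10 lower, where 11.9% of all transcripts were higher and 16.1% lower. Among the 37 most abundant transcripts, the 2 mTOR-inactive libraries both lay above both growing libraries in 10 genes and below them in 11, and the conditions overlapped in 16. Such separation without overlap was found in 27.8% of 11319 genes in the upward and in 31.8% in the downward direction. The log2 differences of the 37 genes ranged from -0.20 to 0.13 with a median of -0.018, against a median of -0.005 over all genes. In total 28 of the 37 genes (75.7%) lay within 0.1 of 0 on the log2 scale, as did 70.4% of all genes. The replicates of a condition had a median SD of 0.034 in the members and 0.036 in all genes on the same scale. DEPTOR was under 1 RPKM and was not tested, and the 7 transcripts not tested include 3 of DEPDC5.

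The calls among the members depended on single libraries and on the scaling. Scaling the libraries to the same median ratio gave 1 higher and 2 lower member transcripts, and scaling to the same upper quartile 1 and 1, with 912 higher and 1111 lower of all transcripts. Without the first growing library 0 member transcripts were called higher and 1 lower by limma, with 2 and 6 at an unadjusted p under 0.05. Without the second growing library 0 and 0 were called, with 6 and 4 at the unadjusted threshold. Without the first mTOR-inactive library 0 and 1 were called (1 and 6 unadjusted), and without the second mTOR-inactive library 0 and 1 (8 and 5 unadjusted). Fewer libraries leave fewer degrees of freedom, and among all transcripts the calls without 1 library were 310 to 348 higher and 553 to 741 lower.

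**Figure D2:**
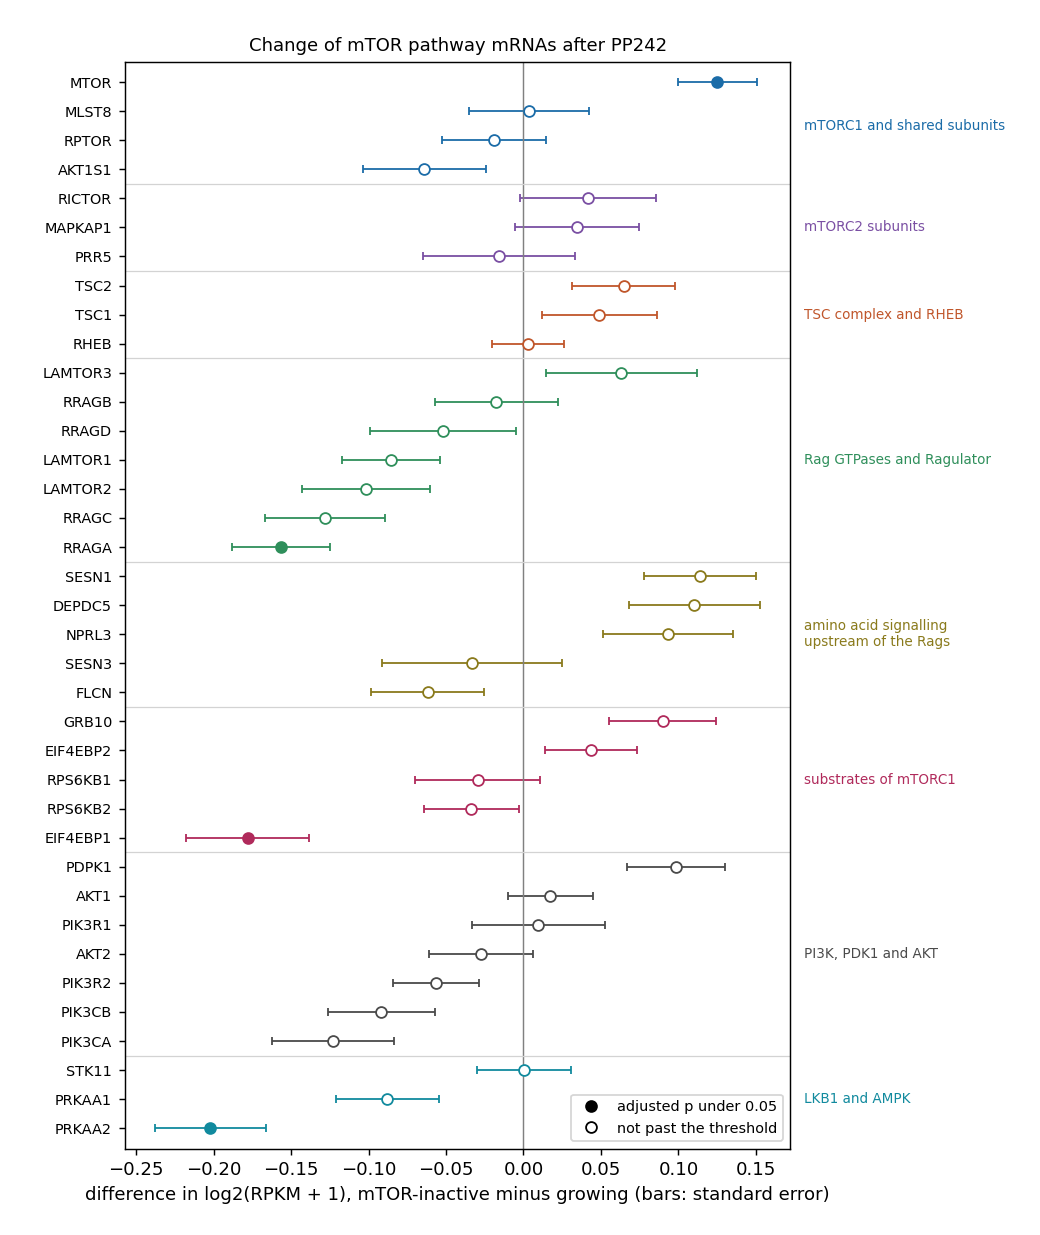
Difference in log2(RPKM + 1), mTOR-inactive minus growing, for the most abundant transcript of the 37 members tested, with the standard error from limma. Filled points are the 4 transcripts past an adjusted p of 0.05 (MTOR to the right, RRAGA, EIF4EBP1 and PRKAA2 to the left), and open points did not pass.

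Among the subunits of mTORC1 and those shared by both complexes, the mRNA of the kinase itself was the most abundant and rose. MTOR (NM_004958.3; GRCh37 chromosome 1, 11166592–11322613, minus strand) was at 22.5 and 22.6 RPKM in the growing and at 24.5 and 24.9 RPKM in the mTOR-inactive libraries. Both mTOR-inactive libraries lay above both growing ones, with a mean level 9.46% higher. The log2 difference was 0.13 ± 0.026 (SE; limma, adjusted p = 0.0368). This call was lost when any 1 library was left out, with adjusted p-values by limma of 0.126 and 0.0997 without the first and second growing library and of 0.101 and 0.1405 without the first and second mTOR-inactive library. It was also lost in eBayes without a trend (0.0618) and with no filter on low values (0.0895). The sources used here do not state that strand was used in counting. Exons of MTOR overlap exons of ANGPTL7 and MTOR-AS1 on the other strand, and ANGPTL7 was at a mean of 0.0032 RPKM.

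The partners of the kinase were at lower levels and did not pass the test. AKT1S1, which encodes the mTORC1 inhibitor PRAS40, was at a mean of 12.0 RPKM in growing and 11.5 RPKM in mTOR-inactive cells. MLST8, the subunit bound to the kinase domain in both complexes, was at 9.90 and 9.93 RPKM. RPTOR, which encodes the substrate-recruiting subunit Raptor, was at 5.32 and 5.24 RPKM. The log2 differences of these 3 genes ran from -0.064 to 0.0035, and their libraries overlapped between the conditions. The MTOR mRNA was 4.24 times as abundant as RPTOR in growing and 4.71 times in mTOR-inactive cells, and 2.28 and 2.49 times as abundant as MLST8. DEPTOR was at 0.808 and 0.904 RPKM in the growing and at 0.880 and 0.872 RPKM in the mTOR-inactive libraries, so the conditions overlapped.

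The subunits of mTORC2 showed no call. MAPKAP1, which encodes SIN1, was at 5.35 and 5.75 RPKM in the growing and at 5.72 and 5.69 RPKM in the mTOR-inactive libraries. RICTOR had means of 3.67 and 3.80 RPKM. PRR5, which encodes the Rictor partner Protor-1, was at 1.94 and 1.83 RPKM in the growing and at 1.96 and 1.76 RPKM in the mTOR-inactive libraries. In all 3 genes the libraries of the conditions overlapped, and the lowest adjusted p by limma was 0.584. At an unadjusted p under 0.05, 0 of the 3 were called. The MTOR mRNA was 6.17 times as abundant as RICTOR in growing and 6.50 times in mTOR-inactive cells, and RPTOR was 1.46 and 1.38 times as abundant as RICTOR.

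The mRNA of RHEB, the GTPase that activates mTORC1, was among the most abundant of the members and had nearly equal values in both conditions. It was at 48.0 and 48.4 RPKM in the growing and at 48.0 and 48.6 RPKM in the mTOR-inactive libraries, a log2 difference of 0.0028 ± 0.023 (SE). The subunits of the TSC complex, which turns RHEB off, were far less abundant. TSC2, its GTPase-activating subunit, had means of 6.72 and 7.08 RPKM. TSC1, its scaffold, was at 1.99 and 1.94 RPKM in the growing and at 2.03 and 2.09 RPKM in the mTOR-inactive libraries. For both TSC genes the mTOR-inactive libraries lay above the growing ones without overlap, by log2 differences of 0.065 ± 0.033 and 0.049 ± 0.037 (SE), and neither passed the test (limma, lowest adjusted p = 0.263; 0 of 3 genes of this group at an unadjusted p under 0.05). Such upward separation without overlap was found in 27.8% of all genes. TSC2 was 3.43 times as abundant as TSC1 in both conditions. Exons of TSC2 overlap on the other strand those of PKD1, which was at 5.73 RPKM.

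Of the Rag GTPases and Ragulator subunits, which hold mTORC1 at the lysosome, 6 of 7 had a log2 difference below 0, also under both scalings of the libraries, and in 4 of these the conditions did not overlap. Over all genes 52.3% had a log2 difference below 0, and in 31.8% the mTOR-inactive libraries lay below the growing ones without overlap. Their median log2 difference was -0.086, against -0.005 for all genes. RRAGB, counted among the 6, was at -0.018 ± 0.040 (SE), and its less abundant transcript was at 0.0031. RRAGA alone passed the test, and 4 of the 7 were lower at an unadjusted p under 0.05, as were 18.9% of all genes. RRAGA (NM_006570.4; GRCh37 chromosome 9, 19049425–19051023, plus strand), 1 of the interchangeable RagA and RagB GTPases, was at 35.2 and 37.1 RPKM in the growing and at 32.3 and 32.4 RPKM in the mTOR-inactive libraries. Its mean fell by 10.6%, with a log2 difference of -0.16 ± 0.032 (SE; limma, adjusted p = 0.0361). The call held without the first growing library, but the adjusted p by limma was 0.101 without the second growing library and 0.106 and 0.0956 without the first and second mTOR-inactive library. With the libraries scaled to the same upper quartile it was 0.0539, in eBayes without a trend 0.0594 and with no filter on low values 0.138.

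RRAGC, a partner GTPase, and the Ragulator subunits LAMTOR1 and LAMTOR2 also had log2 differences below 0. RRAGC was at 12.5 and 13.4 RPKM in the growing and at 11.8 and 11.7 RPKM in the mTOR-inactive libraries, a log2 difference of -0.13 ± 0.039 (SE; limma, adjusted p = 0.0967). LAMTOR1, which anchors Ragulator to the lysosomal membrane, was at 49.0 and 47.5 RPKM in the growing and at 46.4 and 44.4 RPKM in the mTOR-inactive libraries. LAMTOR2, a further Ragulator subunit, had means of 28.8 and 26.8 RPKM. In each of these 3 genes the mTOR-inactive libraries lay below the growing ones without overlap, and none of them passed the test. RRAGD, the paralog of RRAGC, had means of 4.01 and 3.84 RPKM with overlapping libraries, and RRAGB, the paralog of RRAGA, was at 2.48 and 2.46 RPKM in the growing and at 2.51 and 2.35 RPKM in the mTOR-inactive libraries. LAMTOR3, at means of 3.13 and 3.31 RPKM, was the only one of the 7 with a log2 difference above 0 (0.063 ± 0.049, SE). Within the pairs of paralogs, RRAGA was 14.7 times as abundant as RRAGB in growing and 13.3 times in mTOR-inactive cells, and RRAGC was 3.23 and 3.07 times as abundant as RRAGD.

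The genes that carry amino acid signals to the Rags were all under 10 RPKM. GATOR1, of which DEPDC5 and NPRL3 are subunits, turns RagA and RagB off, the Sestrins SESN1 and SESN3 act upstream of it, and FLCN (folliculin) acts on RagC and RagD. SESN1 was at 3.76 and 3.88 RPKM in the growing and at 4.29 and 4.14 RPKM in the mTOR-inactive libraries, a log2 difference of 0.11 ± 0.036 (SE; limma, adjusted p = 0.108). NPRL3 was at 1.98 and 2.13 RPKM in the growing and at 2.31 and 2.21 RPKM in the mTOR-inactive libraries (limma, adjusted p = 0.213). In both genes the mTOR-inactive libraries were the higher ones without overlap, as in 27.8% of all genes. DEPDC5 was at 0.893 and 0.964 RPKM in the growing and at 1.11 and 1.05 RPKM in the mTOR-inactive libraries (limma, adjusted p = 0.160). Its mean over the 4 libraries just passed the minimum of 1 RPKM through the mTOR-inactive libraries, so it had to differ to be tested. It is 1 of the 10 genes separated upward and 1 of the 13 transcripts higher at an unadjusted p under 0.05 that are counted above. FLCN was at 6.81 and 6.94 RPKM in the growing and at 6.73 and 6.37 RPKM in the mTOR-inactive libraries, on the opposite side without overlap, and SESN3, at means of 4.97 and 4.83 RPKM, overlapped. None of the 5 genes passed the test. Exons of NPRL3 overlap on the other strand those of MPG, which was at 10.5 RPKM.

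Among the substrates of mTORC1, the mRNA of the translation repressor 4E-BP1 was the most abundant member of the pathway and fell. EIF4EBP1 (NM_004095.3; GRCh37 chromosome 8, 37888052–37917883, plus strand) was at 81.8 and 78.7 RPKM in the growing and at 73.4 and 68.3 RPKM in the mTOR-inactive libraries. The conditions did not overlap, and the mean fell by 11.7%, with a log2 difference of -0.18 ± 0.040 (SE; limma, adjusted p = 0.0462). This value is close to the threshold, and the adjusted p by limma was 0.053 with the libraries scaled to the same median ratio and 0.0743 with the same upper quartile, 0.0736 in eBayes without a trend and 0.183 with no filter on low values. Without the first and second growing library it was 0.1575 and 0.0795, and without the second mTOR-inactive library 0.111, whereas the call held without the first mTOR-inactive library.

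The other substrates did not pass the test. EIF4EBP2, the paralog of EIF4EBP1, had means of 23.1 and 23.9 RPKM, and the ratio of EIF4EBP1 to EIF4EBP2 was 3.58 and 3.36 in the growing and 3.12 and 2.82 in the mTOR-inactive libraries. RPS6KB2, which encodes S6K2, was at 24.5 and 23.5 RPKM in the growing and at 23.7 and 23.2 RPKM in the mTOR-inactive libraries, and RPS6KB1, which encodes S6K1, was at 13.4 and 13.7 RPKM and at 12.8 and 13.8 RPKM. Both S6 kinase mRNAs overlapped between the conditions, and RPS6KB2 was 1.77 times as abundant as RPS6KB1 in both. GRB10, an adaptor that dampens insulin signaling when mTORC1 phosphorylates it, was at 4.91 and 5.04 RPKM in the growing and at 5.45 and 5.27 RPKM in the mTOR-inactive libraries. Its libraries did not overlap (limma, adjusted p = 0.158).

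In the growth factor arm of PI3K, PDK1 and AKT, none of 7 genes passed the test by limma, with 1 higher and 2 lower at an unadjusted p under 0.05, against 12.9% and 18.9% of all genes. The catalytic subunits of PI3K were on the low side. PIK3CA was at 2.99 and 3.17 RPKM in the growing and at 2.71 and 2.79 RPKM in the mTOR-inactive libraries, a log2 difference of -0.12 ± 0.039 (SE; limma, adjusted p = 0.110). PIK3CB had means of 3.39 and 3.12 RPKM. Both catalytic subunit mRNAs were lower in the mTOR-inactive libraries without overlap, as were 31.8% of all genes. The regulatory subunit PIK3R2 was at 21.04 and 20.4 RPKM in the growing and at 19.9 and 19.9 RPKM in the mTOR-inactive libraries, and its paralog PIK3R1 was at 1.66 and 1.81 RPKM and at 1.74 and 1.76 RPKM. PIK3R2 was thus 12.0 times as abundant as PIK3R1 in growing and 11.4 times in mTOR-inactive cells. PDPK1, the kinase PDK1 upstream of AKT, was at 5.71 and 5.65 RPKM in the growing and at 6.22 and 6.08 RPKM in the mTOR-inactive libraries, higher without overlap (log2 difference 0.099 ± 0.032, SE; limma, adjusted p = 0.113). The human genome holds a near-identical copy of PDPK1 and reads matching several loci were divided evenly, so the level of PDPK1 is uncertain. AKT1 had means of 15.2 and 15.4 RPKM and AKT2 of 7.71 and 7.55 RPKM.

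In the energy-sensing arm, the mRNA of a catalytic subunit of AMPK, PRKAA2, fell, and that of the other, PRKAA1, did not pass the test. PRKAA2 (NM_006252.3; GRCh37 chromosome 1, 57110987–57181008, plus strand) encodes AMPK alpha-2 and was at 7.60 and 7.85 RPKM in the growing and at 6.44 and 6.72 RPKM in the mTOR-inactive libraries. Its mean fell by 14.8%, with a log2 difference of -0.20 ± 0.036 (SE; limma, adjusted p = 0.0250). The call held without the second mTOR-inactive library, but the adjusted p by limma was 0.0644 and 0.0928 without the first and second growing library and 0.0897 without the first mTOR-inactive library, and 0.112 with no filter on low values. PRKAA1, which encodes AMPK alpha-1, was at 4.49 and 4.47 RPKM in the growing and at 4.11 and 4.21 RPKM in the mTOR-inactive libraries, lower without overlap (log2 difference -0.088 ± 0.033, SE; limma, adjusted p = 0.155). STK11, which encodes LKB1, the kinase that activates AMPK, was at 21.5 and 22.2 RPKM in the growing and at 21.6 and 22.2 RPKM in the mTOR-inactive libraries, a log2 difference of 0.00034 ± 0.030 (SE).

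The isoforms of a gene gave similar values. In the 18 genes with at least 2 transcripts tested, the log2 differences of the isoforms of a gene spanned a median of 0.010 and at most 0.062, the latter in MAPKAP1. In MAPKAP1, PRR5 and RRAGB the isoforms lay on both sides of 0. Reads that match several isoforms were divided among them, so isoforms of a gene share reads and are not independent. The transcripts called belong to MTOR, RRAGA, EIF4EBP1 and PRKAA2, none of which had a second transcript tested.

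A wider list of 52 further genes of the pathway gave a similar picture, with larger changes in a few genes. Of their 98 transcripts, 84 transcripts of 46 genes were tested, and 4 transcripts rose and 4 fell, together 9.52%, against 9.93% of all transcripts. At an unadjusted p under 0.05, 17 of the 84 were higher and 7 lower, against 11.9% and 16.1% of all transcripts. DDIT4, which encodes the stress-induced mTORC1 inhibitor REDD1, had the largest difference. It was at 28.0 and 30.4 RPKM in the growing and at 21.0015 and 21.3 RPKM in the mTOR-inactive libraries, a log2 difference of -0.45 ± 0.041 (SE; limma, adjusted p = 0.00365). SESN2, the third Sestrin, fell as well, from 24.6 and 24.7 RPKM to 22.2 and 22.9 RPKM (limma, adjusted p = 0.0427). TTI2, which encodes a subunit of the complex that assembles mTOR with its partners, was at 3.38 and 2.96 RPKM in the growing and at 2.51 and 2.53 RPKM in the mTOR-inactive libraries (limma, adjusted p = 0.0455).

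The phosphatases that remove phosphate from AKT moved in opposite directions. PHLPP1 rose from 4.23 and 4.21 RPKM to 4.78 and 5.16 RPKM (limma, adjusted p = 0.0408), and PHLPP2 fell from 5.27 and 5.33 RPKM to 4.67 and 4.61 RPKM (limma, adjusted p = 0.0356). ITFG2, a subunit of the KICSTOR complex that holds GATOR1 at the lysosome, rose in both its transcripts, the more abundant from 7.42 and 7.69 RPKM to 8.95 and 8.84 RPKM (limma, adjusted p = 0.0168). EIF4B, a translation initiation factor phosphorylated by S6 kinase, rose from 89.8 and 90.5 RPKM to 97.4 and 101 RPKM (limma, adjusted p = 0.0290). FNIP1, the partner of folliculin, was at 2.37 and 2.48 RPKM in the growing and at 2.63 and 2.85 RPKM in the mTOR-inactive libraries (limma, adjusted p = 0.133). With the upper quartile scaling 5 transcripts of this list were higher and 2 lower. Without the first growing library 0 were higher and 1 lower by limma (7 and 5 at an unadjusted p under 0.05), and without the second growing library 1 and 2. Without the first mTOR-inactive library 2 and 1 were called, and without the second 0 and 1 (8 and 6 unadjusted).

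The regulatory subunits of AMPK and the partners of LKB1 were on the other side of 0 from the catalytic subunits. The 6 further genes of this arm had log2 differences between 0.053 and 0.14 with a median of 0.090, and none of them passed the test. In PRKAG2 the conditions overlapped. Among all genes 52.3% had a log2 difference below 0, and in 27.8% the mTOR-inactive libraries lay above the growing ones without overlap. The difference between catalytic and regulatory subunits was not tested.

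**Figure D3:**
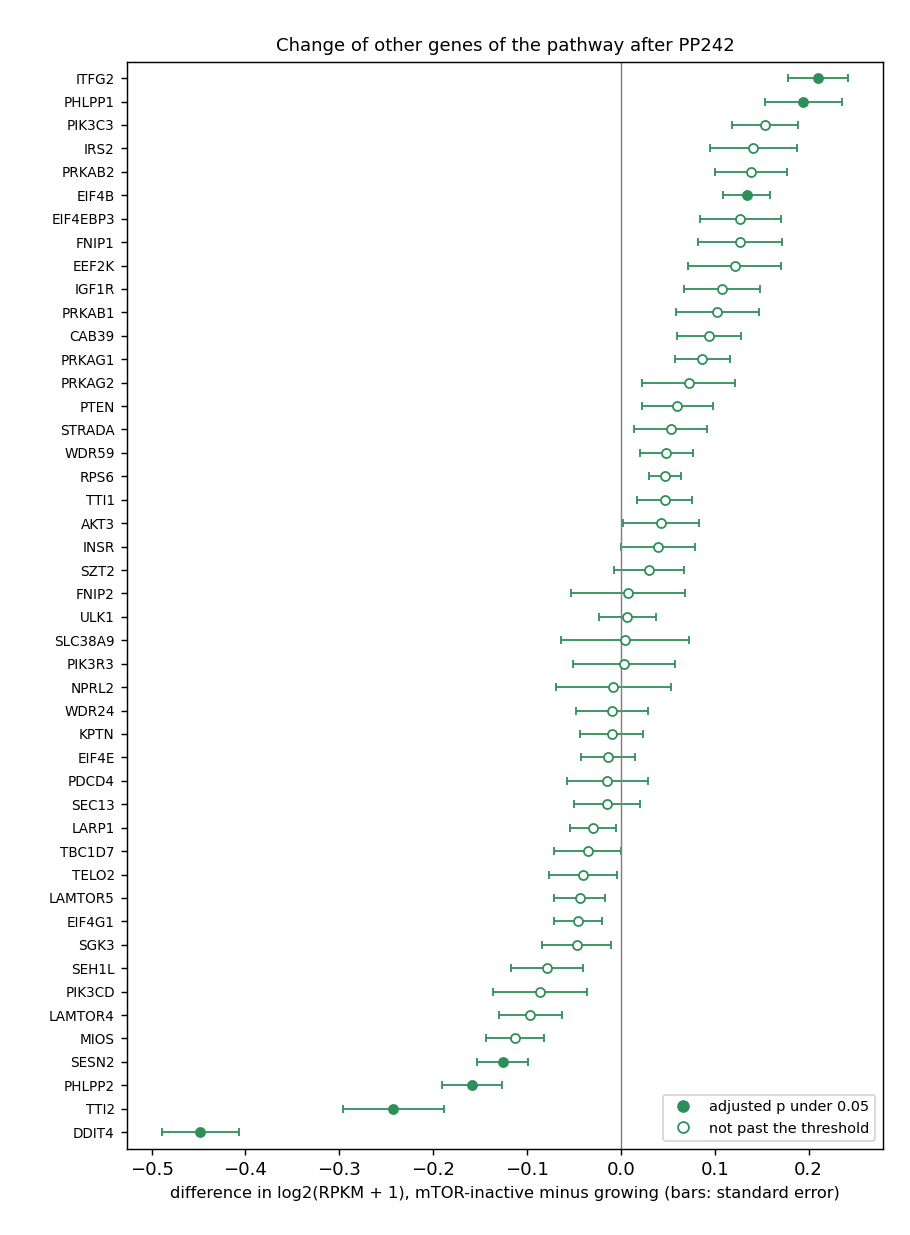
Difference in log2(RPKM + 1), mTOR-inactive minus growing, for the most abundant transcript of the 46 further pathway genes tested, with the standard error from limma. Filled points passed an adjusted p of 0.05; DDIT4 lies apart at -0.45.

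LARP1 binding sites were listed on 9 of the 38 member genes, in 1 condition each. Of the 2010 genes of at least 1 RPKM with a site in either list, 86.1% likewise had it in 1 list only. The PAR-CLIP lists hold 3262 sites on mRNAs under growing and 3255 under mTOR-inactive conditions, each given as RPM (reads scaled by the mapped reads of the library), and with 1 library per condition no difference between them has a replicate check. Under growing conditions 4 of the 37 members with at least 1 RPKM had a site (10.8%), and so did 10.3% of 10632 genes of at least 1 RPKM. Under mTOR-inactive conditions 5 of 37 had a site (13.5%), against 11.2% of these genes. With a minimum of 1 RPM the count was 1 of 37 (2.70%) under growing conditions, against 1.75%, and 3 of 37 (8.11%) under mTOR-inactive conditions, against 3.84%. In all, the lists hold 3948 and 3947 sites, with values down to 0.0002 and 0.0003 RPM under growing and mTOR-inactive conditions. These are more than the paper counts after its RPM threshold, so an entry need not be a site that the authors kept. A gene with no entry was not shown to be unbound. In total 29 members had no entry, among them MTOR, RPTOR, RICTOR, RHEB, TSC1 and TSC2.

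Among the members, the strongest site under growing conditions was on LAMTOR1. It lay in the 3’UTR at nt 1019–1042 of NM_017907.2 with 5189 RPM, the 17th highest of the 3262 sites on mRNAs. Divided by the transcript RPKM and multiplied by 1000, as the authors give it, its value was 107563. This site carried nearly all of the 5189 RPM listed on members in growing cells (1.37% of all RPM on mRNAs). LAMTOR1 had no entry in the mTOR-inactive list, while its mRNA was at 46.4 and 44.4 RPKM there.

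Among the members, the strongest sites under mTOR-inactive conditions were on RPS6KB2 and EIF4EBP1, which encode substrates of mTORC1. RPS6KB2 had a site of 1026 RPM in its coding sequence at nt 1240–1262 of NM_003952.2, the 109th highest of 3255 sites, with a normalized value of 43798. EIF4EBP1 had a site of 296 RPM in its 3’UTR at nt 800–822 of NM_004095.3, the 387th highest, with a normalized value of 4180. Neither gene had an entry in the growing list, and the mRNA level of RPS6KB2 overlapped between the conditions. The sites on members summed to 1330 RPM under mTOR-inactive conditions (0.352% of all RPM on mRNAs). As no member had a site in both lists, the sums of the conditions come from different genes and do not measure a change in binding.

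These 3 sites were set apart from the other member sites by their RPM. Their values were also listed on no other gene. Low RPM values are rounded to few digits and coincide across genes, so this second trait follows largely from the first. T-to-C conversion marks a crosslinked 4-thiouridine. The deposited T-to-C column is not described, but at most sites of at least 1 RPM it rises in step with RPM, by 25.8 per RPM in the growing list and by 28.3 per RPM in the mTOR-inactive list. LAMTOR1, RPS6KB2 and EIF4EBP1 were each at 100% of this value (within 5%). The next site, in the 5’UTR of SESN1 at nt 104–119 of NM_001199934.1, had 7.16 RPM but a T-to-C value at 0.0063% of that value, and the same RPM was listed on 1 other gene. The remaining 5 sites were weak, with T-to-C values at 93.6% to 109% of that value, and shared their RPM with 16 to 46 other genes. Under growing conditions these were a 5’UTR site of PRR5 at 0.0388 RPM and 3’UTR sites of FLCN and PRKAA2 at 0.0007 RPM each. Under mTOR-inactive conditions they were 3’UTR sites of PIK3R2 at 0.0032 RPM and of RPS6KB1 at 0.0015 RPM. A T-to-C value of 1 goes with 0.0388 RPM in the growing list and with 0.0353 RPM in the other, and 4 of the member sites lay below these values.

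**Figure D4:**
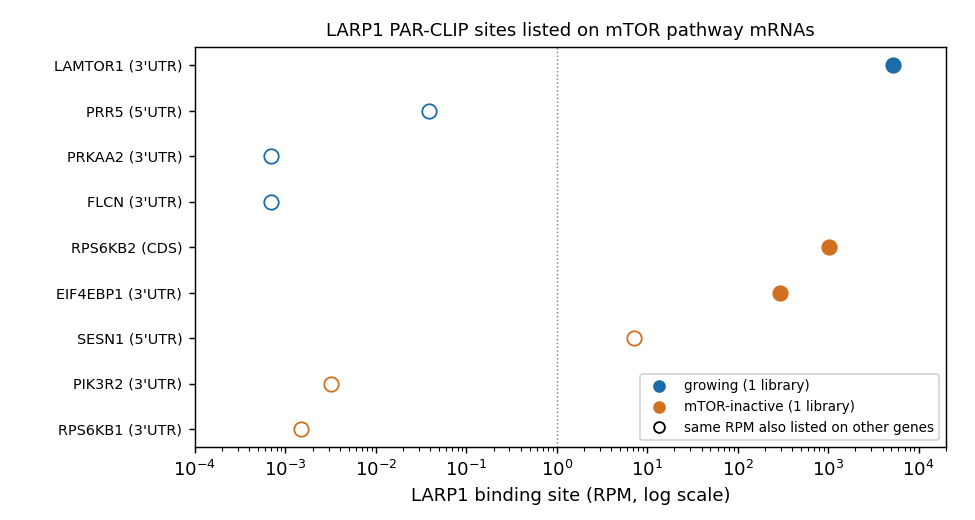
RPM (log axis) of the 9 LARP1 binding sites listed on members, by gene and transcript region, with growing and mTOR-inactive conditions in different colours. Open points share their RPM with a site on another gene; the 3 filled points are LAMTOR1 (5189 RPM), RPS6KB2 (1026 RPM) and EIF4EBP1 (296 RPM).

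Of the mRNAs called in mRNA-seq, EIF4EBP1 had a site of at least 1 RPM, PRKAA2 had a site of 0.0007 RPM, and MTOR and RRAGA had none. Among the 52 further genes, RPS6, the ribosomal protein phosphorylated by S6 kinase, had coding sequence sites at the same position in both lists, of 2045 RPM in growing and 1547 RPM in mTOR-inactive cells, with T-to-C values at 99.9% and 43.0% of the value that goes with their RPM, and mRNA levels of 1719 and 1724 RPKM in the growing and of 1787 and 1770 RPKM in the mTOR-inactive libraries. RPS6 also had a 5’UTR site of 104.7 RPM under mTOR-inactive conditions, with T-to-C at 0.202%. PRKAB1, which encodes a regulatory subunit of AMPK, had a 3’UTR site of 935 RPM, and PDCD4, an inhibitor of translation initiation, a coding sequence site of 94.0 RPM, both listed under mTOR-inactive conditions only. PRKAG1 (127 RPM, mTOR-inactive) and FNIP1 (9.61 RPM, growing) had 3’UTR sites with T-to-C values at 0.666% and 0.0081% of the value that goes with their RPM. The choice of RPS6, PRKAB1, PDCD4 and PRKAG1 was made with their values in view.

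The transcription starts of members were set beside those of TOP mRNAs, because earlier work reported that LARP1 binds the TOP sequence in vitro. In the cells studied here, the authors found that 5’UTR sites rarely overlapped TOP sequences. They propose that LARP1 is not a true TOP-binding protein in vivo. The sites on LAMTOR1 and RPS6KB2 lay in the 3’UTR and the coding sequence, not at the start. Below, 30 bases of the RefSeq promoter table (GRCh38.p14) are shown for LAMTOR1 and RPS6KB2, which had the strongest LARP1 sites of the members. They are also shown for MTOR and PRKAA2, whose mRNAs were called, and for RPS6 and EEF1A1 as TOP mRNAs. RRAGA and EIF4EBP1 had no entry. Each run holds the 10 bases before and the first 20 bases after the annotated start, on the strand of the gene, and capitals mark the unbroken pyrimidines from the start.
LAMTOR1 (chr11:72103278-72103307, minus): gccgcgggtcatgtgaccggaagggctcct
RPS6KB2 (chr11:67428484-67428513, plus): cgggactgtcagtcagtgcgcggccaggta
MTOR (chr1:11262532-11262561, minus): tccttccctcgctcccggcttagaggacag
PRKAA2 (chr1:56645304-56645333, plus): agggcccgctgcactgtgggtaggcggcgg
RPS6 (chr9:19380217-19380246, minus): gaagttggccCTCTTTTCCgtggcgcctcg
EEF1A1 (chr6:73521013-73521042, minus): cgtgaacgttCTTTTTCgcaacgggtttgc
The annotated starts of RPS6 and EEF1A1 open with runs of 9 and 7 pyrimidines, whereas those of the 4 members open with a purine. In MTOR the 10 bases before the annotated start are all pyrimidines, so its reading depends on the exact start.

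The search was extended to all members with an entry. A TOP pattern was taken as a C at the annotated start followed by at least 4 pyrimidines on the strand of the gene. It was found at 0 of the 50 annotated starts of 32 members, at 4.07% of all 35116 starts in the table, and in 46 of 64 ribosomal protein genes (71.9%). A C at the start was found in 2 of the 50 member starts and in 14.7% of all starts. The remaining 6 members had no entry in the table. Annotated starts can differ from those used in HEK293T cells, and starts were not measured here.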

How the data were processed

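mRNA-seq and LARP1 PAR-CLIP of HEK293T cells were analysed from the deposited tables. The authors mapped reads to the human transcriptome (GRCh37) with Bowtie, kept perfect matches for mRNA-seq with multiply matching reads divided evenly, and deposited RPKM per transcript and library. In the PAR-CLIP data the authors built clusters from reads with 0 to 2 T-to-C mismatches and deposited sites as RPM, together with the ratio of RPM to transcript RPKM and a T-to-C column, treated as a score because it is not described. Of the 39711 lines of the mRNA-seq table, 1273 repeats were dropped. Read totals per library cannot be read from RPKM or RPM, so counting error is not given.

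Members were found by the gene name in the table, and sites were assigned to them through the RefSeq transcript. Another 5 transcripts of member genes, found by accession, have no gene name in the table, were not used and carry no site. The members and lists were chosen with earlier results of these data known. Differences in log2(RPKM + 1) were tested with limma (version 3.58.1, R 4.3.3), using lmFit and a trended eBayes, over 21014 transcripts, unpaired. No count test was used, as RPKM values are not counts. This fit was first tested on simulated data, with changes larger than those found in the members. Tables and figures were made in Python 3.11.15 (pandas 2.3.3, numpy 2.4.6, matplotlib 3.10.9). Values per library are given for transcripts past the threshold, the 5 largest and 5 smallest differences, the highest and lowest level of each role group and members with a LARP1 site. Further pathway genes are named if called or with a site of at least 1 RPM, at most 8 by size of difference, plus 4 with a LARP1 site that were added with their values in view. Alternative settings changed the pseudocount, the filters on RPKM and RPM, the scaling and the spread model. They included a replicate block, eBayes without a trend, 1 transcript per gene and leaving out each library. Gene coordinates are from GENCODE (GRCh37) and starts from RefSeq (GRCh38.p14). Exons of 17 members overlap an exon on the other strand, in 9 of them that of a protein-coding gene.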

Additional observations from a re-analysis of the deposited data

How the results depend on the processing

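The direction of the 5 largest and 5 smallest member differences held under every alternative that gave a value. These genes were picked as the extremes, and their libraries did not overlap between the conditions. Leaving out a library or changing the pseudocount, filter or spread model could therefore not reverse the direction. Only the scalings of the libraries could have done so. The number of member transcripts higher and lower (1 and 3) became 0 and 1 in eBayes without a trend (13 and 8 at an unadjusted p under 0.05), 1 and 1 with upper quartile scaling, and 0 and 0 with no filter on low values (13 and 8 unadjusted), where 38438 transcripts were tested and 57 were called higher and 63 lower. For the further pathway genes (4 and 4) the lower count became 2 with upper quartile scaling. Both counts became 0 with no filter (12 and 12 unadjusted). Raising the filter to 5 RPKM also gave a lower count of 2, but only 46 of the 84 transcripts were then tested. PHLPP2 and TTI2, both called lower above, averaged 4.97 and 2.85 RPKM and were removed by this filter, so their calls were not tested there. Leaving out each library gave 0 higher and 0 to 1 lower member transcripts, 0 to 2 and 1 to 2 of the further genes, and 310 to 348 and 553 to 741 of all transcripts. The median log2 difference of the member transcripts, 0.0033, became -0.0176 with 1 transcript per gene and 0.0195 with upper quartile scaling, where that of all transcripts was 0.0132. Deviations of same-numbered libraries had r = 0.040 over 21014 transcripts, so the numbers were not taken as pairs. With the replicate block 1 member transcript was higher and 3 lower, with 716 and 1419 of all transcripts.

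The member genes with a LARP1 site, 4 under growing and 5 under mTOR-inactive conditions, became 1 and 3 with a minimum of 1 RPM or of 0.1 RPM, and 1 and 2 with sites whose values are on no other gene. The ratio of summed RPM between the lists, 0.256, which comes from different genes, became 0.464 with RPM per transcript RPKM. Matching sites by a gene name in the site lists was not run, because the lists used here hold no such column. The T-to-C and RPM values of single sites have no replicate, and weak sites cannot be told apart from shared reads.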
